A study of Mus musculus with 9 samples.

Results

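The genes of oxidative phosphorylation were examined in single cells of the mouse neocortex at embryonic day E18.5, with the subunits encoded in the nucleus and those encoded in mitochondrial DNA kept apart. Members were all gene rows whose symbol starts with Nduf and then a, b, c, s or v, with Cox4 to Cox8, with Uqcr or with Atp5, the 4 succinate dehydrogenase genes Sdha, Sdhb, Sdhc and Sdhd, and all rows with the prefix mt-. The 6 libraries used list 17477 genes between them, and 104 of these met the rule, 91 nuclear and 13 mt-. Of the nuclear members, 36 belong to complex I, 4 to complex II, 8 to complex III, 18 to complex IV and 15 to complex V. The other 10 met the rule by name and are not subunits, namely the complex I assembly factors Ndufaf1 to Ndufaf7, the supercomplex factor Cox7a2l, and Atp5s and Atp5sl.

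The study asked what the loss of the transcription factor TCF4 changes in cells of the developing neocortex. All embryos came from breedings of Tcf4ex4WT/lacZ mice, which carry 1 allele with a lacZ and neomycin cassette before exon 4 of Tcf4. Wild-type (WT) embryos carried no such allele, and knockout (KO) embryos carried 2, which removes the long isoform TCF4B while the shorter isoform TCF4A is still made. Each library is the dissociated neocortex of 1 embryo, and those used were labelled WT2, WT3, WT4, WT5, KO4 and KO5.

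Oxidative phosphorylation is carried out in the inner mitochondrial membrane. Complexes I, III and IV pass electrons from NADH to oxygen and pump protons, complex II feeds in electrons from succinate, and complex V, the ATP synthase, uses the proton gradient to make ATP. Complex II is built from nuclear genes throughout, while the other complexes combine nuclear subunits imported from the cytosol with subunits made inside the mitochondrion. The mitochondrial genes are transcribed as long RNAs that are cut into single messages, so their levels are set apart from those of nuclear genes. In the developing cortex, radial glia and other dividing progenitors are known for high glycolysis, and neurons for their dependence on oxidative phosphorylation.

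Tcf4 itself stood at 12.2, 12.6 and 12.2 unique molecular identifiers (UMIs, each a captured transcript) per 10000 in WT2, WT3 and WT4, at 9.29 and 7.59 in KO4 and KO5, and at 7.20 in the library labelled WT5. The library labelled WT5 thus had the lowest value of all and goes against its label, and the study's methods leave out the WT library with low Tcf4. KO was therefore compared with WT2, WT3 and WT4, and sums and counts of calls are also given with WT5 taken as labelled where that changes them. The reads lie at the 3′ end, and a transcript of the KO allele that still holds this end is counted, so the residual value does not measure the long isoform. After the cell filters, 1184 to 6173 cells per library were kept, with a median of 2217 to 4359 UMIs per cell, and the members took 6.85% to 8.22% of all UMIs. The study used male and female littermates. Xist, a transcript of female cells, had 0 UMIs in kept cells of KO5 and 5378 to 54415 in the other libraries. Sex was not a term in any comparison, and its part was not tested. WT5, KO4 and KO5 also stood apart from WT2, WT3 and WT4 in Actb, at 170 to 197 against 40.5 to 64.3 UMIs per 10000. Summed ribosomal protein genes were at 2127 to 2207 against 1521 to 1884 in these same sets of libraries. The limit of 1% haemoglobin UMIs touched 0.42% to 1.34% of cells in WT2, WT3 and WT4, 3.71% in WT5, 13.9% in KO4 and 40.4% in KO5. Glutamatergic neurons, a class described below, made up 61.0%, 67.8% and 59.2% of kept cells in WT2, WT3 and WT4. They were 76.4% and 80.2% in KO4 and KO5 and 83.3% in WT5, so sums over all kept cells mix classes in unlike shares. These differences run with the genotype comparison, and their part in the results below was not tested.

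Summed over all kept cells, the 91 nuclear members were at 345, 328 and 325 UMIs per 10000 across WT2, WT3 and WT4, beside 337 and 350 in KO4 and KO5. The KO libraries lay inside or close to the WT range, and the difference was 10.9 between means of 332 ± 10.8 (SD, n = 3) and 343 ± 9.45 (SD, n = 2), with p = 0.3 in a two-sided exact permutation test. The 13 mt- members were at 381, 441 and 363 UMIs per 10000 across WT2, WT3 and WT4, beside 447 and 468 in KO4 and KO5. Here both KO libraries were above every WT library and the means differed by 62.3, from 395 ± 40.8 (SD, n = 3) to 458 ± 15.1 (SD, n = 2; exact permutation p = 0.2). With 3 libraries against 2 this test cannot give a p under 0.1, so the design cannot pass 0.05 for a single sum. The library labelled WT5 had 358 nuclear and 458 mt- UMIs per 10000, next to the KO libraries in both. Taken as labelled, it brought the differences to 4.53 for the nuclear and 46.6 for the mt- members.

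**Figure D1:**
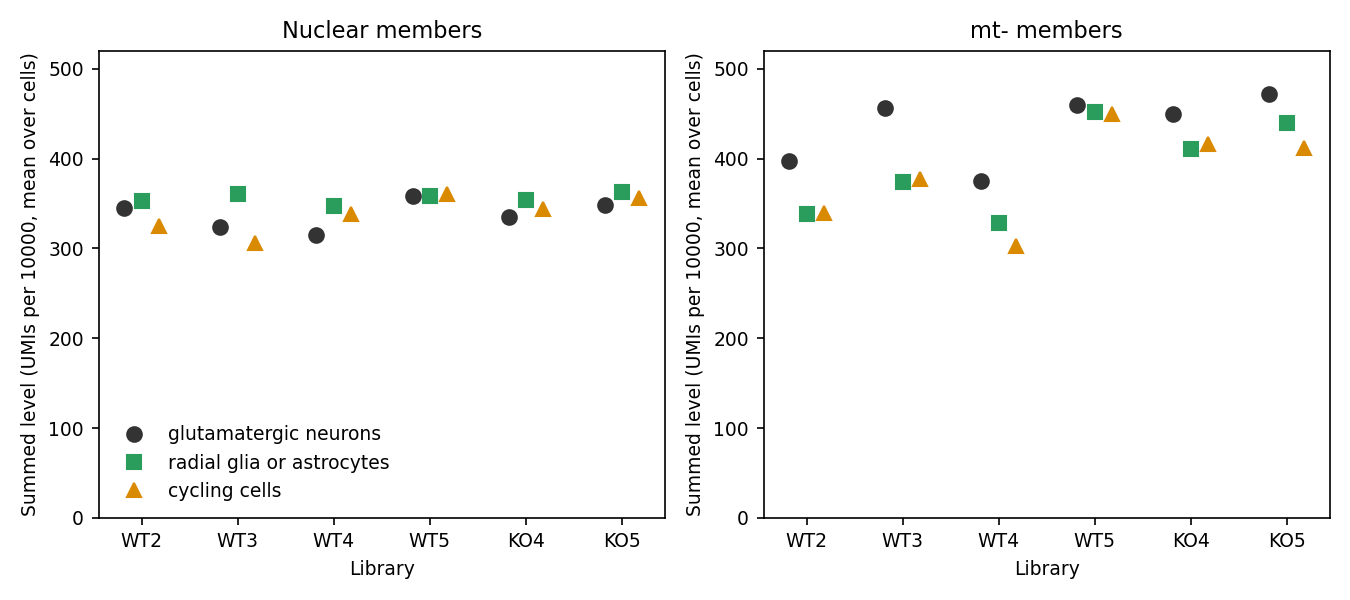
Summed level (UMIs per 10000, mean over cells) of the nuclear members on the left and the mt- members on the right, with 1 position on the horizontal axis per library and 1 symbol per cell class. The nuclear sums of all libraries lie close together, while the mt- sums of radial glia or astrocytes and of cycling cells are higher in WT5, KO4 and KO5 than in WT2, WT3 and WT4.

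Cells were assigned to classes by the marker genes they express, and the same sums were taken within classes. In glutamatergic neurons, the excitatory projection neurons and the largest class, the nuclear members summed to 345, 324 and 315 UMIs per 10000 in WT and to 334.5 and 348.5 in KO, a difference of 13.55 (exact permutation p = 0.4). Their mt- members summed to 397, 456 and 375 in WT and to 450 and 472 in KO, so that WT3 lay between the KO libraries, with a difference of 51.5 (exact permutation p = 0.3). In radial glia or astrocytes, the stem cells of the cortex and their glial descendants, the nuclear sums were 353, 360 and 347 in WT and 354 and 363 in KO, which overlap (difference 5.58, exact permutation p = 0.4). The mt- sums of this class were 338, 374 and 329 in WT and 410 and 440 in KO, which do not overlap. Their difference of 78.1 had p = 0.1, the smallest this exact permutation test can give. In cycling cells both sums of the KO libraries were above those of WT2, WT3 and WT4, and the means differed by 27.4 for the nuclear and by 74.4 for the mt- members (exact permutation p = 0.2 for each). The gated cells were not alike in KO and WT. Cycling markers in this class summed to 58.3, 59.2 and 51.8 UMIs per 10000 in WT2, WT3 and WT4 against 25.5 and 23.1 in KO4 and KO5. GABAergic markers in it were at 8.79, 7.89 and 13.2 against 2.78 and 1.53. In radial glia or astrocytes their own markers were at 67.9, 61.6 and 50.9 against 31.3 and 28.3. The part of this in the KO differences was not tested. The library labelled WT5 had an mt- sum of 452 in radial glia or astrocytes, and 360 nuclear and 450 mt- in cycling cells, above both KO libraries in each. Taken as labelled it makes the groups overlap and brings the differences to 51.8, 17.99 and 46.8, and the nuclear and mt- differences of glutamatergic neurons to 6.07 and 38.9. The KO difference of the mt- sum was 26.6 larger in radial glia or astrocytes than in glutamatergic neurons (12.8 with WT5), and an exact permutation test of this difference between classes gave p = 0.2. The corresponding value of the nuclear sum was -7.97 (exact permutation p = 0.5), and -1.82 with WT5.

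The size of these differences depends on the denominator. With ribosomal protein and haemoglobin genes left out of the total, the KO difference over all kept cells was 39.2 for the nuclear members (exact permutation p = 0.2) and 111 for the mt- members (p = 0.1). Cells were kept only under 6% mt- UMIs. Kept cells above 5% made up 8.45% of WT2, 27.6% of WT3 and 7.37% of WT4, with 31.8% and 44.4% in KO4 and KO5 and 37.3% in WT5. The deposited cells already lay under this limit in every library, so the mt- sums are those of cells below it, and cells above it were not analysed here.

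By complex, the nuclear members did not move as 1 block. The 18 complex IV members, the subunits of cytochrome c oxidase, summed to 95.4, 89.1 and 93.8 UMIs per 10000 across WT2, WT3 and WT4, beside 103 and 105 in KO4 and KO5. Every KO library was above every WT library, with a difference of 11.5 (exact permutation p = 0.1, the smallest possible), and the library labelled WT5 was highest at 115. The 4 members of complex II, succinate dehydrogenase, went the other way, at 5.67, 6.16 and 5.43 in WT against 4.69 and 4.70 in KO. Again the groups do not overlap, the difference was -1.05 (exact permutation p = 0.1), and WT5 was lowest at 4.27. Complex I, the NADH dehydrogenase, summed to 99.3 to 107 in WT and to 100 and 105 in KO, and its difference of -1.70 lay within the spread (exact permutation p = 0.6). Complexes III and V differed by 0.97 and 1.84 (exact permutation p = 0.6 for each), and the 10 members that are not subunits by -0.65 (p = 0.2). In glutamatergic neurons alone, complexes IV and II differed by 11.9 and -0.92 (exact permutation p = 0.1 for each), again with no overlap between KO and WT. None of these sums can pass 0.05 at this number of libraries.

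Gene by gene, no member passed the test between KO and WT. Over all kept cells, 83 nuclear and 13 mt- members had a level high enough to be tested with limma, and 0 of the 83 and 0 of the 13 had a Benjamini-Hochberg adjusted p under 0.05, where 1.15% of all 8554 genes tested did. In glutamatergic neurons the counts were again 0 of 83 and 0 of 13, against 2.86% of 8310 genes. At an unadjusted p under 0.05, limma had 9 nuclear and 2 mt- members over all kept cells, or 10.8% and 15.4% beside 25.7% of all genes. At an adjusted p under 0.05 edgeR called 0 members and DESeq2 called 4 nuclear and 4 mt- members, all higher in KO, with 3.86% of all genes called by DESeq2. Without WT4, limma called 6 nuclear and 2 mt- members over all kept cells and 5 and 1 in glutamatergic neurons, in fits that called 16.6% and 12.6% of all genes. In glutamatergic neurons limma had 8 nuclear and 3 mt- members at an unadjusted p under 0.05 (24.7% of all genes), edgeR called 1 and 1 (3.2% of all genes) and DESeq2 2 and 3 (5.46%). Median log2 fold changes were near 0 for the nuclear members, at -0.019 over all kept cells and -0.026 in glutamatergic neurons on the log2(UMIs per 10000 + 1) scale, beside -0.046 and -0.042 over all genes tested. For the mt- members they were 0.14 and 0.09. The direction of the nuclear median depends on the scaling, since it was above 0 with edgeR and DESeq2 in both cell sets. The 8 nuclear members left untested over all kept cells include Cox6a2, Cox7b2 and Cox8c, with 21, 8 and 2 UMIs in all 6 libraries, which are subunit forms known from muscle and testis.

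Several of the members with an unadjusted limma p under 0.05 in glutamatergic neurons were picked after their values were seen and are given as values. Atp5e, the epsilon subunit of the ATP synthase, was at 7.38, 6.68 and 8.32 UMIs per 10000 across WT2, WT3 and WT4, beside 10.7 and 11.2 in KO4 and KO5 and 11.4 in WT5. The KO libraries lay above the WT range and beside WT5, and the log2 fold change was 0.50 ± 0.13 (SE, limma adjusted p = 0.0838). The mitochondrial gene mt-Nd3, a complex I subunit, was at 3.999, 3.02 and 4.25 in WT and at 5.59 and 5.79 in KO (log2 fold change 0.50, limma adjusted p = 0.0957). mt-Co3, a core subunit of complex IV, was at 73.7, 80.4 and 74.4 in WT and at 96.7 and 105 in KO (0.40, limma adjusted p = 0.196). Both lie on the mitochondrial chromosome and have near-identical copies under other gene models, so reads of 1 locus may be counted at the other or be lost. In the other direction, Sdhb, the iron-sulphur subunit of succinate dehydrogenase, was at 2.95, 3.61 and 2.502 in WT and at 2.11 and 2.25 in KO, with a log2 fold change of -0.33 (limma adjusted p = 0.165). Uqcrc1, a core protein of complex III, stood at -0.32, and Ndufa9, which binds at the joint of the arms of complex I, at -0.25. For the small subunits Cox6c of complex IV and Atp5j2 of the ATP synthase the log2 fold changes were 0.37 and 0.27.

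Counted by overlap over all kept cells, 19 of 83 nuclear and 5 of 13 mt- members were higher in both KO libraries than in every WT library, where 9.03% of all genes tested were. In the other direction it was 26 nuclear and 0 mt- members, against 43.9% of all genes. In glutamatergic neurons 21 nuclear and 5 mt- members were higher (11.1% of all genes) and 21 nuclear and 0 mt- members lower (39% of all genes). Over all kept cells, 40 of 83 nuclear members and 2368 of 8554 genes had a log2 fold change above 0 on the limma scale. With edgeR these were 66 of 83 and 4018 of 8554, so such tallies depend on the scaling.

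Nuclear members above and below 0 tended to differ in the length of their transcripts, a property looked at after the values were seen. In glutamatergic neurons, the annotated transcript lengths of 82 tested nuclear members were split at their median of 931.5 bases. Of the 41 short members, 30 had a log2 fold change above 0, with a median of 0.07. Of the 41 long members 33 were below 0, with a median of -0.09. Length runs with complex, since every tested complex IV member but Cox7b was short and every complex II member was long. The parts of length and complex were not tested apart. Across the 82 members the Spearman correlation of length and log2 fold change was -0.58, and across the 7846 other genes tested it was 0.043. Genes share libraries and are not independent replicates, so these are descriptions without a test. The cut at 0 is that of the limma scale, and with edgeR 63 of 83 nuclear members lay above it in glutamatergic neurons.

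The same division showed in the libraries themselves. In glutamatergic neurons, the summed level of the short members divided by that of the long members gave 2.03, 1.92 and 2.06 for the libraries WT2, WT3 and WT4, beside 2.3005 and 2.29 for KO4 and KO5 and 2.43 for the library labelled WT5. WT5 lay with the KO libraries, and the KO ratios were above the ratios of WT2, WT3 and WT4. Genes that are not members showed this division by the same cut in length, with ratios of 0.260, 0.223 and 0.255 in WT, 0.316 and 0.321 in KO and 0.320 in WT5. With ribosomal proteins left out, the ratios of the other genes were 0.105, 0.0996 and 0.102 against 0.116 and 0.122, with 0.122 in WT5.

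**Figure D2:**
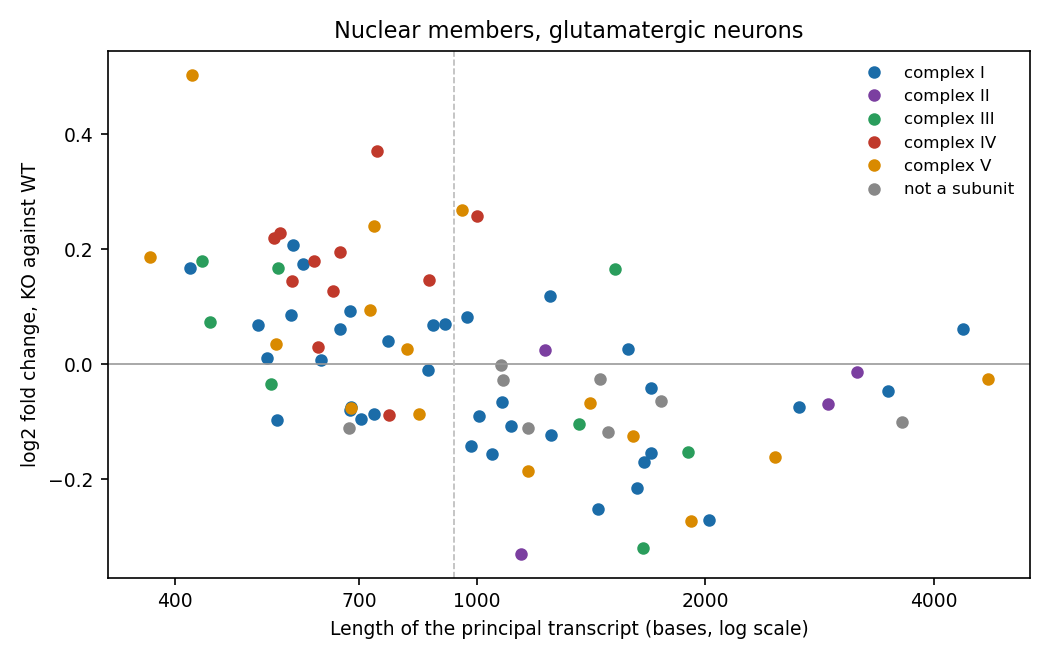
Log2 fold change between KO and WT in glutamatergic neurons against the length of the principal transcript (bases, log axis) for 82 nuclear members, coloured by complex; the dashed line is the median length. Of the members left of it 30 of 41 lie above 0, and of those right of it 33 of 41 lie below.

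Cell classes were compared within each library. In all 6 libraries the nuclear sum was higher and the mt- sum lower in radial glia or astrocytes than in glutamatergic neurons. The nuclear differences were 8.36, 36.3, 31.2, 0.70, 19.9 and 14.8 UMIs per 10000 in WT2, WT3, WT4, WT5, KO4 and KO5, with a mean of 18.55 ± 13.5 (SD, n = 6). The mt- differences were -58.7, -82.3, -46.3, -7.37, -39.7 and -32.0 in the same order, with a mean of -44.4 ± 25.3 (SD, n = 6). Both differences are smallest in the library labelled WT5. An exact sign-flip permutation test gave p = 0.03125 for each, the smallest it can give, and after adjustment over the 7 classes compared the values were 0.219 and 0.109. In the same order of libraries, median depths of radial glia or astrocytes were 2612, 4248.5, 4767, 2306.5, 2474 and 2196 UMIs per cell. Those of glutamatergic neurons were 2439, 3580, 4689.5, 2232, 2287 and 2232. The widest gap in depth was in WT3, which also had the largest class differences. In KO5 radial glia or astrocytes were the shallower class, at 2196 against 2232, with differences of 14.8 and -32.0. The part of depth in the class differences was not tested.

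Cycling cells had lower mt- sums than glutamatergic neurons in 6 of 6 libraries, by a mean of -52.1 ± 25.9 (SD, n = 6; exact sign-flip adjusted p = 0.109), while their nuclear sums differed by 0.68 on average and in either direction. In intermediate progenitors, the neuron-producing daughters of radial glia, the mt- sum was lower in 4 of 4 libraries with a mean difference of -29.1, and the nuclear sum differed by 5.05. Endothelial cells had higher mt- sums in 4 of 4 libraries, by 15.4, and GABAergic neurons differed by 8.14 in the nuclear and -4.51 in the mt- sum. Microglia and Cajal-Retzius cells reached 20 cells in only 2 libraries each. The Cajal-Retzius values stood farthest out, with nuclear differences of 81.5 in WT2 and 47.7 in WT4. Upper-layer minus deep-layer neurons gave -1.21 ± 3.71 for the nuclear and -4.13 ± 5.74 for the mt- members (SD, n = 6), differences within the spread between libraries.

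**Figure D3:**
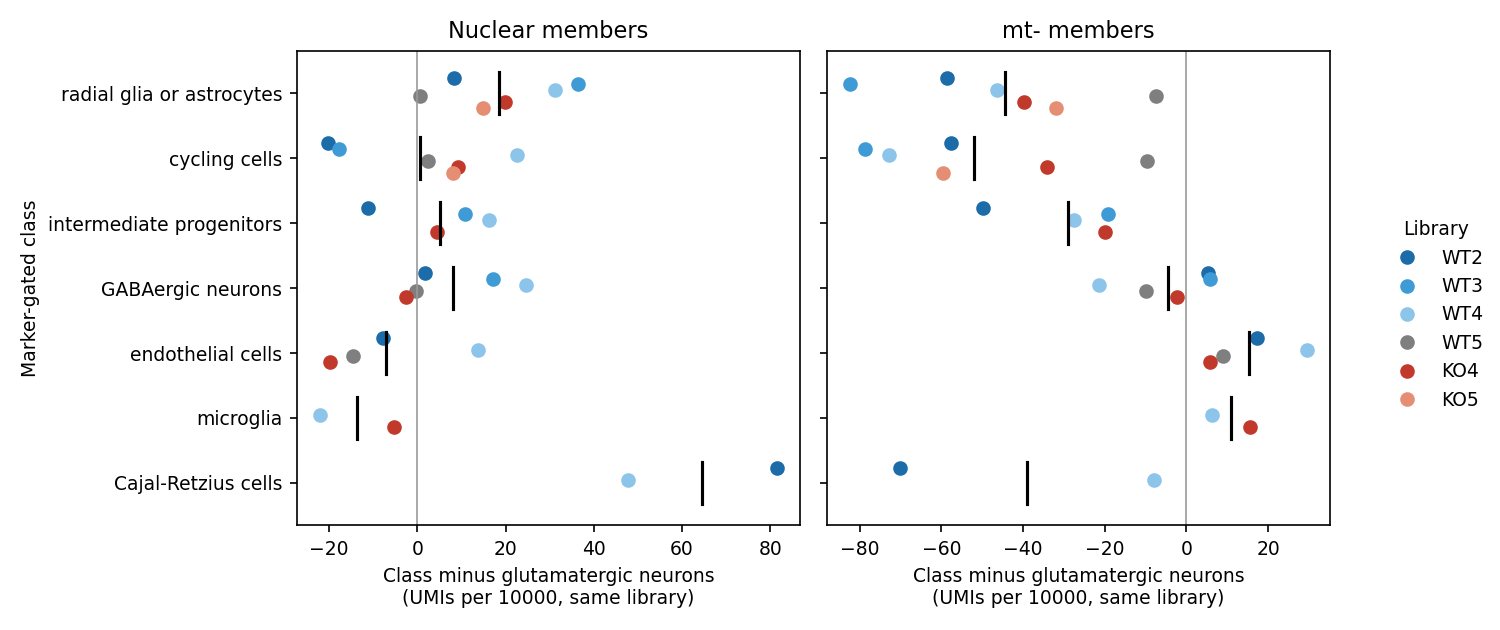
Difference in summed UMIs per 10000 between each cell class and glutamatergic neurons of the same library, for nuclear members on the left and mt- members on the right; each point is 1 library with at least 20 cells of the class, and the black bar is the mean. Radial glia or astrocytes lie above 0 for the nuclear and below 0 for the mt- members in all 6 libraries, and cycling cells lie below 0 for the mt- members in all 6.

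By complex, the nuclear excess of radial glia or astrocytes was found in complex I, with a mean difference of 7.91 ± 5.35 (SD, n = 6; higher in 6 of 6 libraries), and in complex II, at 0.75 ± 0.45 (6 of 6 libraries). Complexes III and V were higher by 4.30 and 4.19, each in 5 of 6 libraries and each with WT5 as the exception. The exact sign-flip adjusted p was 0.0938 for each of these 4 complexes. Complex IV differed by 1.12 ± 4.14, higher in 4 of 6 libraries (exact sign-flip adjusted p = 0.531).

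At the level of genes, 9 of 86 tested nuclear members were higher and 1 was lower in radial glia or astrocytes than in glutamatergic neurons at a limma adjusted p under 0.05, and 7 of 13 mt- members were lower and 0 higher. Over all 9875 genes tested, 10.4% were higher and 7.24% lower, so the nuclear members were called higher about as often as any gene. The counts rest on single libraries, since without WT2 they were 2 nuclear and 1 mt-, without WT4 1 and 2, without WT3 3 nuclear, without KO4 4 nuclear and without WT5 16 nuclear. The shares of all genes called in these fits were 4.88%, 3.75%, 6.76%, 11.1% and 23.8% in the same order. Within each library the glutamatergic markers were also seen in other classes, at 4.83 to 6.78 UMIs per 10000 in radial glia or astrocytes of WT2, WT3 and WT4 and at 12.6 to 15.1 in WT5, KO4 and KO5, beside 29.2 to 38.5 in glutamatergic neurons. The part of these neuronal transcripts in the smaller class differences of WT5, KO4 and KO5 was not tested.

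Of the complex I genes, Ndufc2, a small membrane subunit, had the largest difference. It was at 7.49, 11.2, 8.88, 4.61, 6.07 and 6.18 UMIs per 10000 in radial glia or astrocytes of WT2, WT3, WT4, WT5, KO4 and KO5 and at 4.60, 5.24, 4.68, 4.77, 4.55 and 4.53 in glutamatergic neurons. The levels in neurons were nearly constant, and those in radial glia were higher in 5 libraries and just lower in WT5, with a log2 fold change of 0.51 ± 0.12 (SE, limma adjusted p = 0.0222). In intermediate progenitors Ndufc2 was higher again, at 8.25, 8.37, 7.27 and 8.66 in WT2, WT3, WT4 and KO4 (log2 fold change 0.66 ± 0.09, limma adjusted p = 1.19e-06). It was also higher in cycling cells (0.29 ± 0.07, adjusted p = 0.0152). Endothelial cells, by contrast, had Ndufc2 at 2.44 to 4.39, and no difference was called there. Further complex I genes higher in radial glia or astrocytes were the accessory subunit Ndufa2 (0.28, adjusted p = 0.0103) and Ndufs8, which carries iron-sulphur clusters (0.24, adjusted p = 0.0432). Ndufaf5, an assembly factor of complex I, was lower, at -0.17 (adjusted p = 0.0429).

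Sdhc, the membrane anchor of complex II, was at 0.94 to 1.39 UMIs per 10000 in radial glia or astrocytes and at 0.68 to 0.88 in glutamatergic neurons, so the ranges over the 6 libraries do not meet (log2 fold change 0.27 ± 0.06, limma adjusted p = 0.0167). In complex III, Uqcr10 and Uqcrb, both small nuclear subunits, were higher by 0.22 and 0.21 (adjusted p = 0.0485 and 0.0423). Atp5e was higher by 0.18 (adjusted p = 0.0415). Of 15 other settings tried, Uqcr10 passed in 6, Uqcrb in 5 and Atp5e in 4, while Ndufc2, Atp5g2 and Sdhc each passed in 12. The only nuclear complex IV gene called was Cox6b2, a form known from testis, at 0.030 to 0.17 UMIs per 10000 against 0.0089 to 0.037, levels at which few molecules were seen. It reached the low-value limit in radial glia or astrocytes alone, so its values are a description, and leaving it out gives 8 higher nuclear members.

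The c-ring of the ATP synthase, the rotor through which protons pass, is built from 1 mature protein that 3 nuclear genes encode, Atp5g1, Atp5g2 and Atp5g3. Since the 3 genes give the same product and moved differently between classes, the 250 bases before their RefSeq starts are shown, on GRCm38.p6, each 5′ to 3′ on the gene's minus strand. They lie at chr11:96075632-96075881 for Atp5g1, chr15:102671048-102671297 for Atp5g2 and chr2:73911327-73911576 for Atp5g3. GENCODE gene models place the 5′ end of Atp5g3 next to its window, but that of Atp5g1 at 96075670, inside the window, and that of Atp5g2 at 102672352, beyond it. Capitals mark a match to GCGC, any 2 bases and GCGC again, the letters searched on both strands for the nuclear respiratory factor NRF1, a regulator known for genes of oxidative phosphorylation.
Atp5g1: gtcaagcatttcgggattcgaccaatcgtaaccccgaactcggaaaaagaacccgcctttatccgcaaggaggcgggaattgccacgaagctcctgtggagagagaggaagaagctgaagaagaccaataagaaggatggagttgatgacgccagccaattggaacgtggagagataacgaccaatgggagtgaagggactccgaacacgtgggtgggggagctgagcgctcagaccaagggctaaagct
Atp5g2: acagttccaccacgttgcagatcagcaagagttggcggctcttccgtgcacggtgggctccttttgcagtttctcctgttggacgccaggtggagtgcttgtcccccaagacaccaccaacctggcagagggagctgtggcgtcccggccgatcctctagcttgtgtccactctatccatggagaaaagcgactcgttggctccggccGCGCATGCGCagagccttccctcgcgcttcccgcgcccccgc
Atp5g3: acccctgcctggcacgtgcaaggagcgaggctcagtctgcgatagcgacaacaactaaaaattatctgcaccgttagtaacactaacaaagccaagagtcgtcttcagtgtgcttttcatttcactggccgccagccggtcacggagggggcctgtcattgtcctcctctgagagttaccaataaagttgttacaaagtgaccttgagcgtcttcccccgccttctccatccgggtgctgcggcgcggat
Among the 3, only Atp5g2 holds these letters. Their GC contents are 53.6%, 62.8% and 54.0%. Of the 72 nuclear members with a promoter entry, 15 (20.8%) held the letters on either strand, against 5.05% of 26953 other genes and 13.1% of the 6362 other genes tested here. The letters CCGGAA followed by GT, of ETS factors such as GABP, were in 4.17% of members, 2.93% of other genes and 7.18% of tested genes, and those of YY1, AANATGG followed by CGGC, were in 0 of the 72, beside 0.356% of the others and 1.01% of tested genes. A match in such a window is a description of the sequence and not a binding site.

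Atp5g2 was at 5.48, 5.81, 6.93, 4.94, 6.64 and 5.78 UMIs per 10000 in radial glia or astrocytes of WT2, WT3, WT4, WT5, KO4 and KO5 and at 3.66, 3.63, 4.73, 5.14, 4.99 and 4.78 in glutamatergic neurons. It was higher in radial glia in every library but WT5, with a log2 fold change of 0.34 ± 0.08 (SE, limma adjusted p = 0.0144). It was higher as well in cycling cells, at 5.90 to 8.37 (0.45 ± 0.08, adjusted p = 0.00556), and in intermediate progenitors, at 5.13 to 7.17 (0.46 ± 0.09, adjusted p = 0.000523). Atp5g1 went the other way in intermediate progenitors, at 3.50, 4.11, 4.07 and 4.46 in WT2, WT3, WT4 and KO4 against 5.45, 5.08, 4.98 and 4.84 in their glutamatergic neurons. It was lower in 4 of 4 libraries, with a log2 fold change of -0.28 ± 0.09 (limma adjusted p = 0.0453). Atp5g3 was called in none of the class comparisons. Atp5g2 has a near-identical copy elsewhere in the genome, the gene model Gm10175, and reads shared between them may have been lost.

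**Figure D4:**
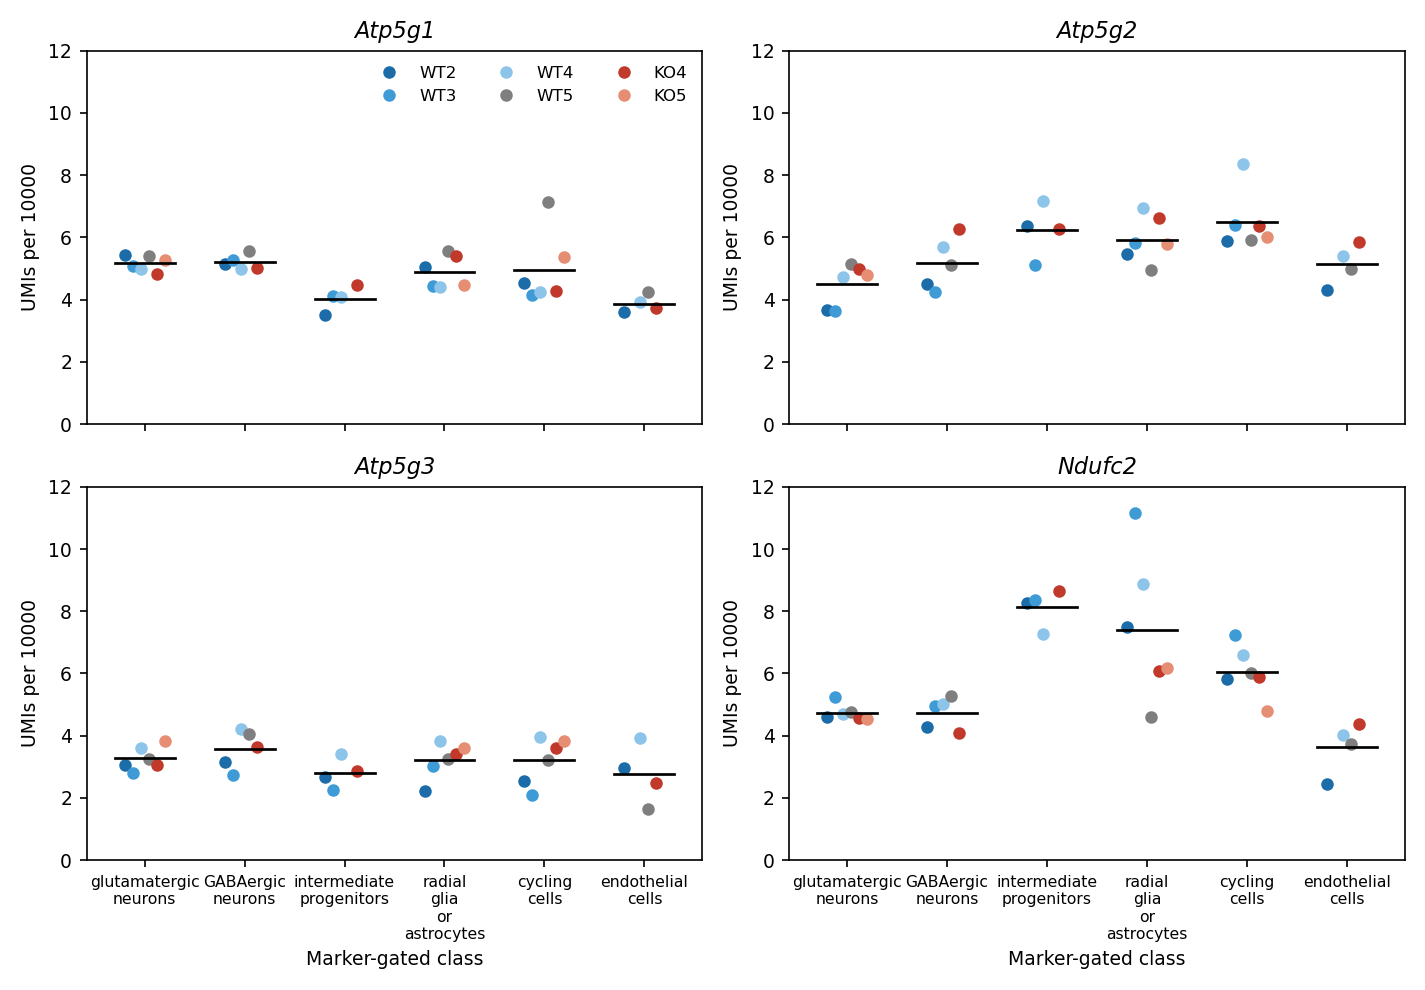
Level in UMIs per 10000 of Atp5g1, Atp5g2, Atp5g3 and Ndufc2 by cell class; each point is 1 library with at least 20 cells of the class and each bar is the mean over libraries. Atp5g2 and Ndufc2 have higher means in intermediate progenitors, radial glia or astrocytes and cycling cells than in glutamatergic neurons, and all points of Atp5g1 in intermediate progenitors lie below those in glutamatergic neurons.

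The mt- genes that were lower in radial glia or astrocytes encode subunits of complexes I, III, IV and V. mt-Nd4, a proton-pumping subunit of complex I, was at 20.7, 25.2, 20.1, 23.9, 21.0 and 22.5 UMIs per 10000 there and at 25.9, 29.6, 24.0, 26.1, 24.3 and 24.4 in glutamatergic neurons of WT2, WT3, WT4, WT5, KO4 and KO5. It was lower in 6 of 6 libraries, with a log2 fold change of -0.20 ± 0.04 (SE, limma adjusted p = 0.00928). Log2 fold changes were -0.20 for mt-Co2 of complex IV, -0.19 for mt-Cytb, the cytochrome b of complex III, -0.18 for mt-Atp6, the channel subunit of complex V, and -0.17 for mt-Co3. For mt-Nd4l and mt-Atp8 they were -0.21 and -0.30. Of these, mt-Atp8 overlaps mt-Atp6 by 43 bases and mt-Nd4l overlaps mt-Nd4 by 7 on the same strand, so their counts cannot be fully told apart. Across libraries mt-Atp8 ranged from 0.91 to 12.7 UMIs per 10000 in glutamatergic neurons, with 12.7 in WT2 and 3.32 in WT3, so that its log2 fold change between KO and WT of -1.11 rests on these 2 libraries. WT2 and WT3 are also the libraries deposited as normalised values, and the part of this in their mt-Atp8 levels was not tested. In cycling cells 7 of 13 mt- members were lower, mt-Atp6, mt-Co2, mt-Co3, mt-Cytb, mt-Nd2, mt-Nd4 and mt-Nd4l, at log2 fold changes of -0.16 to -0.27, where 7.07% of all genes were lower.

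The remaining calls in dividing or newly born cells concerned few nuclear members. In cycling cells Atp5g2, Ndufc2 and Ndufa2 were higher (6.17% of all genes were), and Ndufa1, a small subunit of complex I, was lower at -0.23 (limma adjusted p = 0.0486). In intermediate progenitors 5 of 83 nuclear members were higher and 3 lower, with 6.74% of all genes higher and 6.88% lower. Besides Ndufc2 and Atp5g2, the higher members were Ndufs8 (0.41, adjusted p = 0.00377), Uqcrh, the hinge protein of complex III (0.34, adjusted p = 0.0047), and Cox7a2l, which joins complexes III and IV (0.40, adjusted p = 0.00162). Cox7a2l was at 6.36, 6.70, 6.91 and 7.34 UMIs per 10000 in intermediate progenitors of WT2, WT3, WT4 and KO4 and at 4.99, 4.56, 5.15 and 5.01 in their glutamatergic neurons, with no overlap. The lower members were Ndufv2, a flavoprotein-arm subunit of complex I (-0.34), Ndufaf5 (-0.32) and Atp5g1, and mt-Atp6 was lower too (-0.18, adjusted p = 0.0172). Without WT2 the nuclear count of 8 fell to 4, and without WT2 or WT4 0 mt- members were called, in fits that called 11% and 8.08% of all genes. In cycling cells the nuclear count of 4 was 1 without WT2, WT3 or WT4 and 2 without KO4, and the mt- count of 7 was 3 without WT2 and 4 without WT3 or WT4. All genes called in these fits came to 4.07% without WT2, 5.69% without WT3, 4.73% without WT4 and 9.73% without KO4.

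In the endothelial class the members farthest from neurons were variant forms of complex IV subunits. Ndufa4l2, a relative of the complex IV subunit Ndufa4 that is known as a target of hypoxia signalling, was at 3.71, 3.94, 2.297 and 2.63 UMIs per 10000 in the endothelial class of WT2, WT4, WT5 and KO4 and at 0.018 to 0.084 in glutamatergic neurons of all libraries. It was higher in 4 of 4 libraries, with a log2 fold change of 1.97 ± 0.14 (SE). Cox4i2, the form of complex IV subunit 4 found in oxygen-sensing and vascular cells, was at 1.65, 1.05, 0.62 and 0.91 against 0.0040 to 0.029 (log2 fold change 0.996 ± 0.12). Both genes lay under the low-value limit in every glutamatergic column and were tested only because they are high in the endothelial class, so no p is given. Of their common counterparts, Cox4i1 was at 11.3 to 15.2 in the endothelial class and 10.8 to 13.3 in glutamatergic neurons and Ndufa4 at 6.07 to 11.3 and 8.41 to 11.4, and neither was called. Ndufa4l2 was detected in 16 of 24, 27 of 41, 10 of 22 and 30 of 52 endothelial-class cells of WT2, WT4, WT5 and KO4, or 45.5% to 66.7%, against 0.416% to 1.52% of glutamatergic neurons. Median depths in these 4 libraries were 2241 to 5896 UMIs per cell in the endothelial class and 2232 to 4690 in glutamatergic neurons.

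Many cells of this class also carried transcripts of pericyte and smooth muscle genes, and whether these cells were doublets was not tested. With Rgs5, Pdgfrb, Kcnj8, Abcc9, Vtn and Notch3, markers of pericytes and smooth muscle chosen after the values were seen, 16 of 24, 27 of 41, 10 of 22 and 36 of 52 cells of the class had at least 2 of the 6. Of the 16, 27, 10 and 30 cells with a Ndufa4l2 UMI, 14, 23, 6 and 23 had at least 2 of these mural genes, and 0, 2, 0 and 2 had none. Most cells with Ndufa4l2 thus also carried mural genes, but so did most cells of the class in WT2, WT4 and KO4. Whether Ndufa4l2 belongs to mural cells was not tested. The summed endothelial markers in the class were at 119, 84.9, 42.5 and 48.6 UMIs per 10000.

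In the endothelial class 5 of 87 tested nuclear members were higher and 7 lower, where 13% of all genes were higher and 11.1% lower. Of these, Ndufa4l2, Cox4i2 and, on the lower side, Ndufaf6 reached the low-value limit in 1 of the classes only, which leaves 3 higher and 6 lower. Besides Ndufa4l2 and Cox4i2, Uqcrb (0.49), Ndufs8 (0.48) and Atp5j, a stalk subunit of the ATP synthase (0.35), were higher. The lower members were the small complex IV subunits Cox7b (-0.44), Cox7a2 (-0.40) and Cox7c (-0.30), Atp5f1 (-0.36), and the assembly factors Ndufaf2 (-0.43), Ndufaf3 (-0.38) and Ndufaf6 (-0.24). Of the mt- members only mt-Co1, the catalytic core of complex IV, was called. It was at 68.1, 64.9, 63.2 and 68.0 UMIs per 10000 in the endothelial class of WT2, WT4, WT5 and KO4 and at 42.6, 43.0, 51.2 and 53.4 in their glutamatergic neurons, which do not overlap (0.47 ± 0.07, limma adjusted p = 0.000287). The nuclear count of 12 was 5 without WT2, 3 without WT4, 8 without WT5 and 7 without KO4, with 18.7%, 14.6%, 27.8% and 20.2% of all genes called in these fits. The remaining 12 mt- members were not called. GABAergic neurons, microglia and the comparison of upper with deep layers called 0 members, with 1.71%, 5.28% and 0.167% of all genes called. At an unadjusted p under 0.05, limma had 7 nuclear and 1 mt- member in GABAergic neurons, 0 in microglia, and 7 nuclear and 1 mt- member between the layers. edgeR and DESeq2 also called 0 members in these 3 comparisons.

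**Figure D5:**
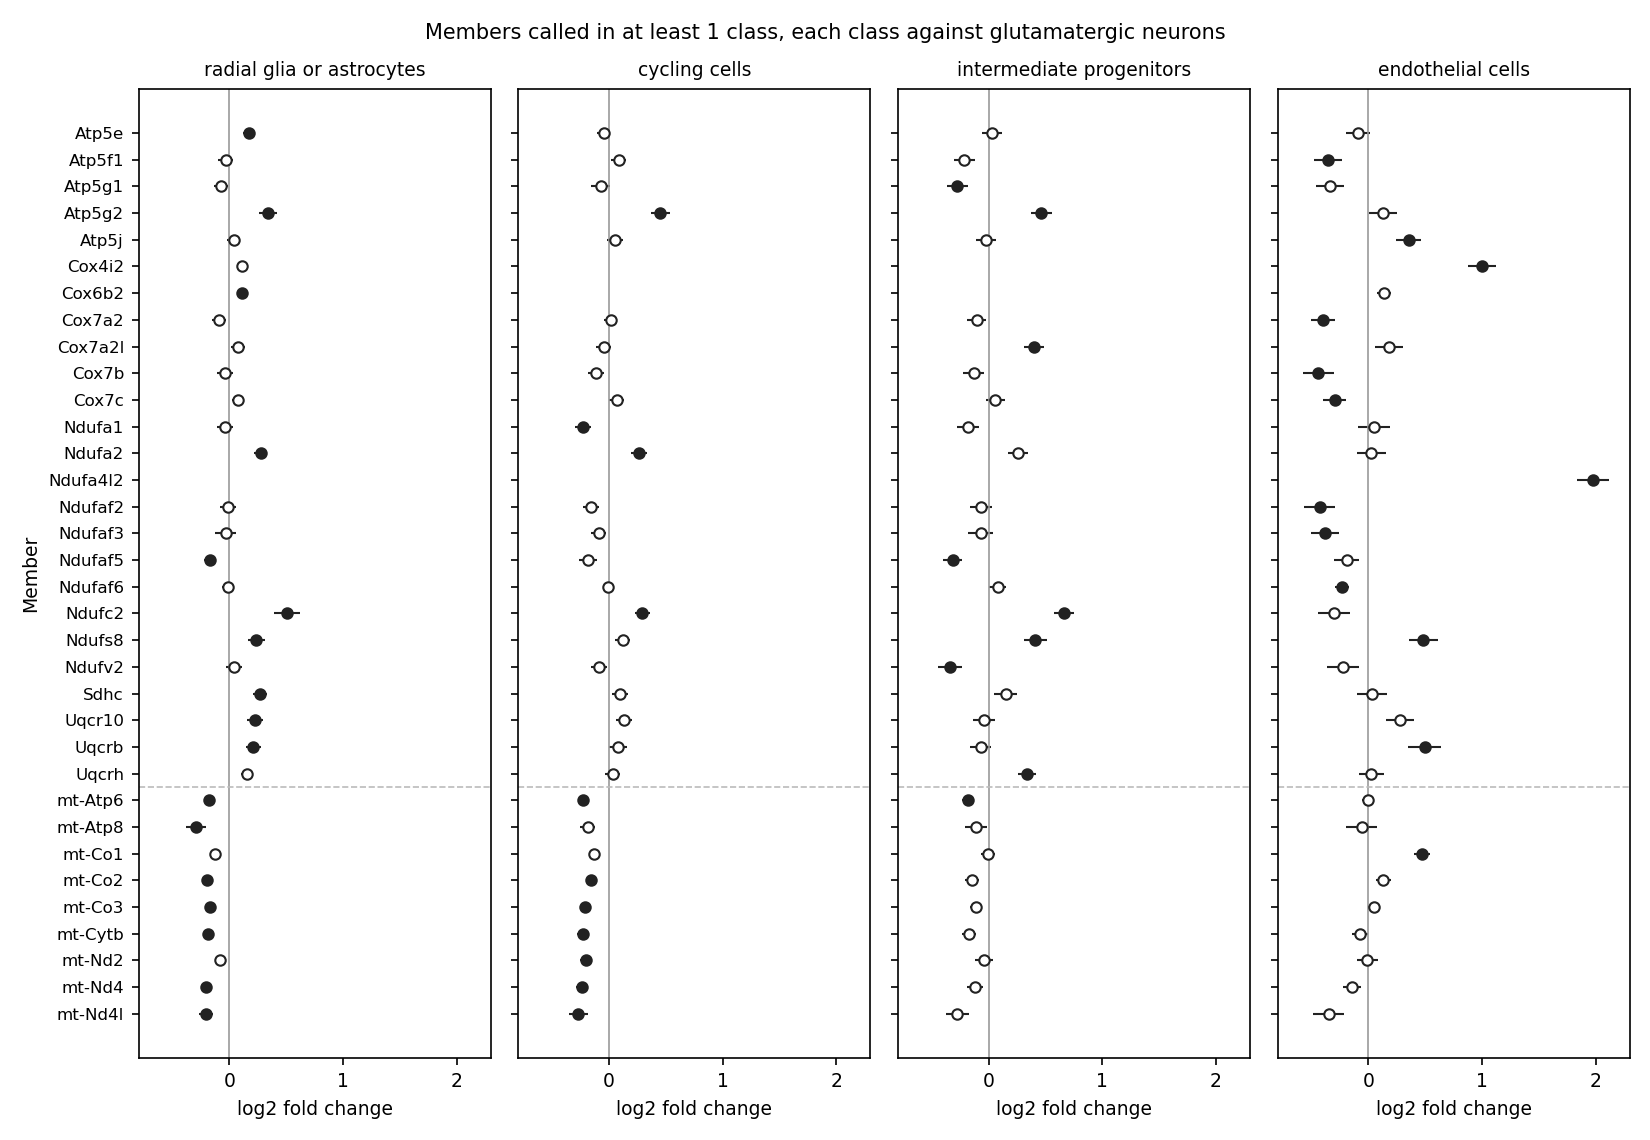
Log2 fold change against glutamatergic neurons, on the log2(UMIs per 10000 + 1) scale, of each member called in at least 1 of 4 cell classes; points are the limma estimates with their standard errors, filled where the adjusted p is under 0.05 (Ndufa4l2, Cox4i2 and Ndufaf6 in the endothelial class and Cox6b2 in radial glia or astrocytes reached the low-value limit in 1 of the compared classes only), and no point is drawn where a member was not tested. Atp5g2 and Ndufc2 are filled in 3 of the 4 classes, the mt- members below the dashed line lie mostly left of 0, and Ndufa4l2 in the endothelial class lies farthest right at 1.97.

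Lists of other genes of energy metabolism were counted in the same fits. In radial glia or astrocytes 9 of 17 tested genes of glycolysis were higher and 0 lower, where 10.4% of all genes were higher, among them Aldoc, an astrocyte form of aldolase (2.26 on the log2 scale), Aldoa (0.75), Ldha, which reduces pyruvate to lactate (0.63), and Eno1 (0.59). The endothelial class had 5 of 16 higher and 1 lower (13% of all genes higher), intermediate progenitors 4 of 17 and 1 (6.74%), and cycling cells 2 of 16 and 0 (6.17%). Of 14 tested carriers and porins, 1 was higher and 1 lower in radial glia or astrocytes, intermediate progenitors and the endothelial class. Of all genes, 7.24%, 6.88% and 11.1% were lower there. In cycling cells 1 was higher and 0 lower. Slc25a5, an exchanger of ADP and ATP, was the higher gene in radial glia or astrocytes (0.89 ± 0.19, limma adjusted p = 0.025), intermediate progenitors (0.98), cycling cells (0.81) and the endothelial class (0.72). The lower genes were Slc25a4 in intermediate progenitors (-0.37) and Chchd6 in radial glia or astrocytes (-0.22) and the endothelial class (-0.55). Suclg2 of the citric acid cycle was higher in radial glia or astrocytes (0.26), intermediate progenitors (0.26) and the endothelial class (0.42). Between KO and WT, 1 gene of all these lists was called, Timmdc1, a complex I assembly factor, which was higher over all kept cells (0.48 ± 0.05, limma adjusted p = 0.00796) and in glutamatergic neurons (0.47 ± 0.06, adjusted p = 0.00568). With WT5 added as labelled 0 genes of the whole table were called in either cell set, and without WT2 0 over all kept cells, so the call of Timmdc1 is lost there. Glycolysis, the citric acid cycle, the carriers and the genes for mitochondrial DNA upkeep had 0 genes called there.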

How the data were processed

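Single cells of E18.5 neocortices, 1 embryo per library, were captured with the Chromium Single Cell 3′ kit v2. Per the labels and the study's methods, the authors aligned reads with Cell Ranger to mm10 (GRCm38) and used Seurat 2.3.4. WT4, WT5, KO4 and KO5 were deposited as whole UMI counts per gene and cell. WT2 and WT3 were deposited as the natural log of 1 + UMIs per 10000, and dividing by each cell's smallest value above 0, taken as 1 UMI, gave whole UMIs for every value within 1e-06. WT1, KO1 and KO2 were not used here.

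Cells with 1000 to 5000 genes, 1800 to 10000 UMIs and under 6% mt- UMIs were kept, after the study's methods, and cells over 1% haemoglobin UMIs were left out, a limit set here. Doublets were limited only by the upper UMI and gene bounds, and no caller was run. A cell was given the class with most detected markers, at least 2 and more than any other class, and 8.72% to 13.4% of cells per library had none. Of the gated cells, 5.28% to 14.0% sat at 2 markers and 16.5% to 32.9% were 1 marker ahead of the next class. Classes needed 20 cells per library. Barcodes shared by pairs of libraries were 0.168% to 1.01% of the smaller library.

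Levels are UMIs per 10000 of a cell, averaged over cells per library, and are not divided by transcript length since each transcript is tagged once at its 3′ end. Genes at 0.1 or more in at least 2 columns were tested with limma 3.58.1 on log2(level + 1), adjusted over all genes by Benjamini-Hochberg, with library as a term between classes. Libraries are the replicates. Sums were compared by two-sided exact permutation of libraries. edgeR 4.0.16 and DESeq2 1.42.0 were run on summed counts as alternatives. The methods were tested on simulated data. Members, gene lists and the rule for named genes were chosen with earlier results of these data known. The rule took the 2 highest members of each complex, every mt- member, isoform pairs and the members called. Further members with an unadjusted limma p under 0.05 between KO and WT were named after their values were seen. The comparisons with cycling cells, intermediate progenitors and GABAergic neurons and of upper with deep layers, the transcript lengths and the mural genes were added after seeing the data. 9 members, among them Atp5g2, Cox7c and 7 mt- genes, have a near-identical copy of their last 100 bases. Cox6a2, Cox7b2 and Cox8c are not listed in every file, and 103 of the 104 members were matched to the annotation. The values of 1 member are not reported here by name.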

Additional observations from a re-analysis of the deposited data

Results flagged for a closer look

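Of 75 sets of 4 or more libraries checked for a value far from the others, 1 was singled out, where chance gives about 1 in 20. mt-Nd5, a proton-pumping subunit of complex I, was at 4.41 UMIs per 10000 in glutamatergic neurons of WT3, and the nearest of the other libraries labelled WT was at 3.03.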

How the results depend on the processing

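Of 302 alternative values of sums, 296 kept their direction and 6 reversed it. The KO comparison has too few libraries for a sum to pass the threshold, with or without WT5. For the class sums, the smallest p of the exact sign-flip test gave an adjusted p of 0.109 at best in the main setting. Staying on the same side of the threshold was therefore fixed by the design, and the count speaks for direction only. The nuclear KO difference in radial glia or astrocytes turned to -3.37 in cells under 4000 UMIs. The nuclear difference of cycling cells from glutamatergic neurons ran from -3.68 without WT4 to 4.87 without WT2, being -1.02 without KO4 and -0.80 without KO5, and was -0.99 with no haemoglobin limit and -1.21 per 10000 UMIs that are not mt-. Of 230 alternative counts of members called, 173 lay within 1.5 times the main count.

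Leaving out each library in turn, KO against WT called 0 to 6 nuclear and 0 to 2 mt- members over all kept cells and 0 to 5 and 0 to 1 in glutamatergic neurons, with the highest counts without WT4. Radial glia or astrocytes had 1 to 16 and 1 to 8, the endothelial class 3 to 8 nuclear, cycling cells 1 to 5 and 3 to 7, intermediate progenitors 4 to 11 and 0 to 4, and GABAergic neurons 0 to 1 nuclear members called. edgeR, with TMM or RLE factors, called 1 and 1 in the KO comparison of glutamatergic neurons, 16 nuclear in radial glia or astrocytes and 2 mt- in the endothelial class, and with TMM 9 nuclear in cycling cells and 15 and 2 in intermediate progenitors. DESeq2 called 4 and 4 between KO and WT over all kept cells, 2 and 3 in glutamatergic neurons, 7 and 0 in the endothelial class and 2 mt- in intermediate progenitors. With no filter on low values, 0 and 0 were called in radial glia or astrocytes, cycling cells and intermediate progenitors, and 4 nuclear in the endothelial class. With no haemoglobin limit it was 6 nuclear in radial glia or astrocytes and 5 and 0 in intermediate progenitors, where a gate of 3 markers or a pseudocount of 0.1 gave 2 mt-. Over the 5 libraries of the KO comparison, radial glia or astrocytes had 16 nuclear. The cause of these changes was not tested. Microglia had 2 libraries, so none could be left out. Of 1009 alternative values of single members, 777 kept their side of the threshold, 208 lost it and 24 gained it, and 0 turned their direction. These values pool called members with members of the KO comparison that were not called in the main fit. For the latter, keeping a side means staying uncalled. All 208 losses are of called members, so the pooled share understates how often a call was lost.

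Over all genes, 98 were called between KO and WT over all kept cells and 238 in glutamatergic neurons, but 0 and 0 with WT5 added as labelled, 0 and 51 without WT2, 1394 and 1028 without WT4, 36 and 106 with no filter on low values and 330 and 454 with DESeq2. The labels share numbers between WT4 and KO4 and between WT5 and KO5, and deviations of the first pair from their group means correlated at 0.234 and of the second at 0.0996 over 8554 genes. WT2 and KO5, which share no number, correlated at 0.162. With 2 KO libraries their deviations mirror each other, so each WT library correlates above 0 with 1 of them and the values cannot show a pairing. With the number as a replicate block over these 4 libraries, the KO difference was 1.86 for the nuclear and 46.7 for the mt- sum over all kept cells, 0 members were called, and 12 genes were called beside 0 without the block. The number of libraries limits these comparisons, since 3 against 2 cannot pass 0.05 for a single sum, and rare classes rest on few cells per library.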
